A study of Drosophila melanogaster with 2 samples.

Results

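The 10 Polycomb group genes Pc, ph-p, ph-d, Psc, Su(z)2, Sce, pho, phol, Scm and E(z) were described here as locations of Brinker binding, out of 13945 protein-coding genes on the 6 chromosome arms of Drosophila melanogaster. They were taken as a list of names, with no cut on a measured value, although earlier results of these data were known when they were chosen. All 10 matched the annotation by symbol. Brinker is a DNA-binding repressor of genes that the BMP ligand Dpp activates. Whole larvae of both sexes, at the wandering stage of the third instar, carried Brinker with green fluorescent protein at its C terminus (strain brk-GFP, a transgenic line), and chromatin sheared by sonication was precipitated with an antibody against the fluorescent protein and sequenced. There was 1 group with 2 biological replicates, numbered 3 and 4 in the labels, and neither a second genotype nor a second stage. Because whole larvae were used, binding in a few cells and weaker binding in many cells cannot be told apart.

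Polycomb group proteins keep developmental genes, the Hox genes among them, silent after the signals that first silenced them have gone. PRC2 methylates histone H3 through its catalytic subunit E(z). PRC1 holds the chromodomain protein Pc, one of the related proteins Psc and Su(z)2, a Polyhomeotic protein encoded by either of the neighbouring paralogs ph-p and ph-d, and the ubiquitin ligase Sce. Pho and its relative Phol bind DNA and recruit the complexes, and Scm links them. The proteins were not assayed here: the data locate Brinker at the genes that encode them.

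A binding site in what follows is a peak of the deposited dm6 list that had passed IDR, the irreproducible discovery rate. IDR compares the ranks of peaks between replicates, but a listed peak need not have an entry in each replicate list. Of the 3380 nuclear IDR peaks, 3244 overlapped an entry in both. Peaks were assigned to a gene by their summits, using the gene body with 5 kb added on each side. Signal is the authors' value for each peak, on a scale that was not stated. It ran between 82.6 and 1788 over the 3380 nuclear IDR peaks, with a median of 119.

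Below, 6 stretches around summits at these genes are shown. They come from the strongest 3 peaks, which lack the letters of a Brinker site within 100 bp of the summit, and 3 weaker ones that have them there. The stretches are the plus strand of the Release 6 genome (dm6, RefSeq), within 100 bp of the summit and trimmed where an untranslated exon began. Capitals mark a Brinker word (the letters GGCGCC, its neighbour GGCGCT, the form GGCGTC and also the form GGCGTT, on either strand) or the word GAGAG, on either strand, which the GAGA factor recognises. The next 3 lines are the peak beyond the 3' end of Pc at chr3L:21304468-21304608, the strongest peak of ph-p at chrX:2137196-2137396 and the peak before phol at chr3L:9457672-9457872.
Pc: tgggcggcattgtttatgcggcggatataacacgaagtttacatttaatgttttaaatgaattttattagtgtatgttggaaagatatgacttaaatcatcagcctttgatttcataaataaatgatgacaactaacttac
ph-p: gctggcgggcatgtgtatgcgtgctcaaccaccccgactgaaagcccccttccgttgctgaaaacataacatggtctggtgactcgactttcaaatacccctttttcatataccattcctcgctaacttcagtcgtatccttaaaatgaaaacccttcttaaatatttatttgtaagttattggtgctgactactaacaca
phol: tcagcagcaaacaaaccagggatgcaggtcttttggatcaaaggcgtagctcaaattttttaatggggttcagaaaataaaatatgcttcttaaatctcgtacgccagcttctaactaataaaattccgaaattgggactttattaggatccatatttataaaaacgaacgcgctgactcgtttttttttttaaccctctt
The 3 with a Brinker word are the peak before ph-d at chrX:2123803-2124003, the peak at the inner start site of ph-d at chrX:2121869-2122069 and the second peak before phol at chr3L:9460872-9461049.
ph-d before the gene: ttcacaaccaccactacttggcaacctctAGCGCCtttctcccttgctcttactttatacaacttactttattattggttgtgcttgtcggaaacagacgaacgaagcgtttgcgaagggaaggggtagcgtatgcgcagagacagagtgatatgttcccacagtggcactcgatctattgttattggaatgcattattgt
ph-d inner start: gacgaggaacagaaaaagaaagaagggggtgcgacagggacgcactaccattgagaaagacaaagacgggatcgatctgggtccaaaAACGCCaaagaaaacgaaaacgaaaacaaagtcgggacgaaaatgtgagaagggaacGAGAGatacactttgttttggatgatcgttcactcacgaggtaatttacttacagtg
phol, second peak: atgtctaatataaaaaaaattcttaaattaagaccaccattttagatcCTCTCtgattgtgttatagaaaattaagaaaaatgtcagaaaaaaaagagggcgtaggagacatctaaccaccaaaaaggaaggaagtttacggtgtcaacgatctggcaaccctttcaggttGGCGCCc

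Of the 10 genes, 7 had an IDR peak (Pc, ph-p, ph-d, Psc, Su(z)2, phol and Scm) and 3 had none (Sce, pho and E(z)). Among all protein-coding genes, 26.9% had one. The 10 genes were long, with a median of 8.36 kb against 2.17 kb over all protein-coding genes, and long genes have more room for a summit. Of the 6 members of 5 kb or longer, 5 had a peak, where 44.1% of all genes of that length did. Of the 4 shorter members, 2 had a peak, where 21.2% of all shorter genes did. The members are few and were chosen with earlier results of these data known. The counts are therefore a description, and no test was made of them.

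The peaks split between those nearest to a member's own transcription start site (TSS) and those nearest to a neighbour's. The 7 genes shared 16 distinct summits, 2 of which lay within 5 kb of both ph-p and ph-d. A member was the gene with the nearest TSS for 9 of them, namely 4 for ph-p, 2 for ph-d, 2 for Psc and 1 for Su(z)2. The other 7 summits, among them those of Pc, phol and Scm, were nearest to a TSS of another gene. Counted by the nearest TSS, 4 of 10 members had a summit, against 12.8% of all protein-coding genes.

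**Figure D1:**
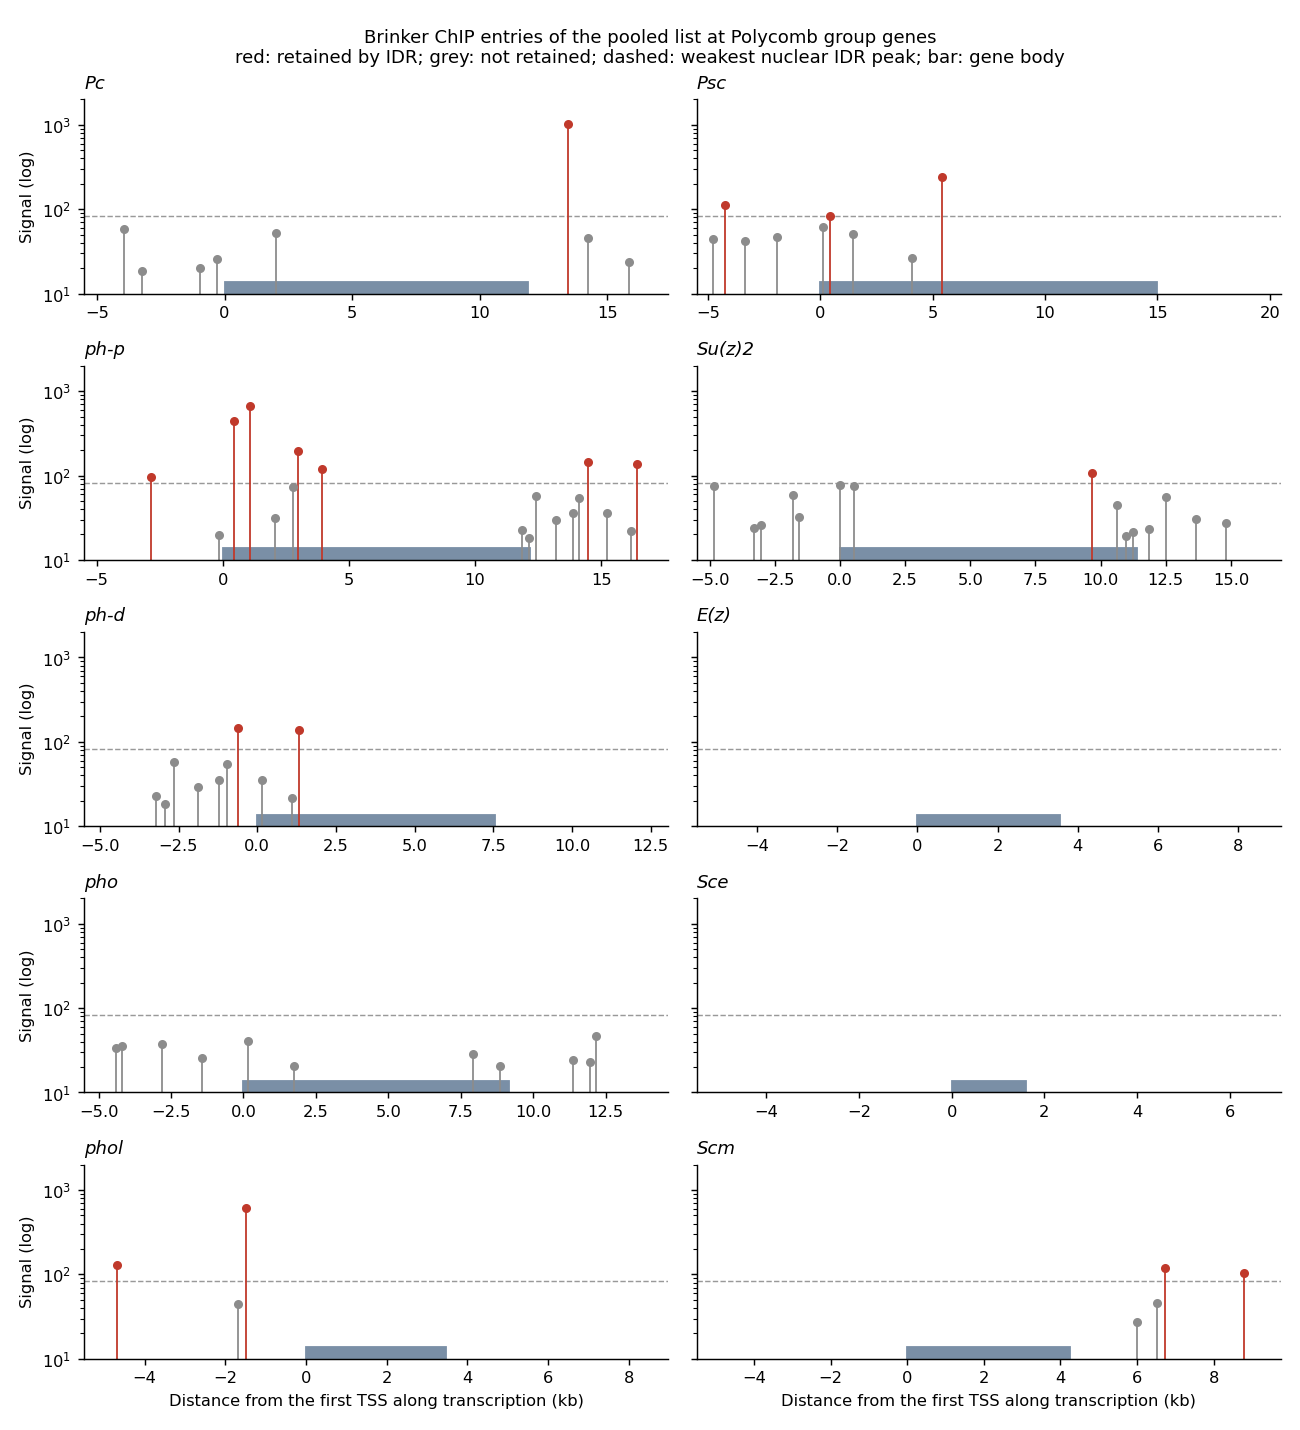
Entries of the pooled list at each of the 10 genes: the horizontal axis is the distance from the gene's first TSS along transcription in kb, the vertical axis the deposited signal on a log scale, and the bar the gene body. Red entries were retained by IDR and grey ones were not. The 1024 peak of Pc and the 606 peak of phol stand outside the gene bodies, those of 665 and 438 stand inside ph-p, and E(z) and Sce have no entry.

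The chromodomain gene Pc (3L:21306138-21318020, minus strand, 11.9 kb) had the strongest peak of the 10 genes, but far from its own start. The peak spanned 3L:21304380-21304741 and had 450 in replicate 3 and 565 in replicate 4, where it ranked 6 and 5. Its signal was 1024, the seventh of the nuclear IDR peaks, and 16 protein-coding genes had a stronger one in their windows. Both replicates thus placed it near the top of their lists.

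That summit lay 1579 bp beyond the 3' end of Pc and 13461 bp from the Pc TSS. It was 92 bp upstream of the nearest TSS, that of CG11309 on the minus strand, and the start of CG7632 on the plus strand was also within 500 bp. Such a site is called a divergent promoter here, meaning that starts on both strands lay within 500 bp of the summit. The order of the starts was not checked, and this summit lay inside the annotated CG11309 gene. Ranked directly beside it were a promoter peak of gish, a casein kinase gene (1030 in all, 449 in replicate 3 and 575 in replicate 4), and a peak at lncRNA:CR46035 (912 in all, 442 and 482).

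At the promoter of Pc itself no peak passed IDR. The pooled list held an entry of 25.5 there, with the summit 288 bp upstream of the Pc TSS, which overlapped entries of 18.6 in replicate 3 and 19.1 in replicate 4. It ranked 19617 of 29964 nuclear pooled entries. Inside the gene the strongest pooled entry had 51.7, with 18.3 in replicate 3 and 31.2 in replicate 4. Brinker signal at Pc was therefore high at the flanking promoter and low at the gene's own, in both replicates.

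The Polyhomeotic gene ph-p (X:2126210-2138371, minus strand, 12.2 kb) had the most IDR peaks of the members and was the one with strong peaks at its own start. It had 7 IDR summits in its window, a number that 70 protein-coding genes of any length (0.502%) reached. Of the 7, ph-p was the gene with the nearest TSS for 4. Its strongest peak, 665 at X:2137204-2137516, had 352 in replicate 3 and 331 in replicate 4, ranks 25 and 26. The second, 438 at X:2137719-2138067, had 220 in replicate 3 and 246 in replicate 4. The summit of the first lay 441 bp upstream of an inner ph-p TSS and that of the second 426 bp downstream of the outermost one.

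The order of these 2 peaks was the same in each replicate. In the list, the 665 peak stood between a promoter peak of larp, which encodes a La-related RNA-binding protein (677 in all, 309 in replicate 3 and 372 in replicate 4), and an intronic peak near CG12769 (661 in all, 357 and 306). Further into ph-p lay 2 intronic peaks, 1238 and 2198 bp downstream of the nearest ph-p TSS. The nearer had 72.5 in replicate 3 and 113 in replicate 4 (193 in the IDR list). The farther had 71.4 in replicate 3 and 60.7 in replicate 4 (119), so their order was clear in replicate 4 and slight in replicate 3.

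The weakest of the 7 (96.2) stood 289 bp upstream of the start of D2hgdh, a gene for a hydroxyglutarate dehydrogenase, with 52.5 in replicate 3 and no overlapping entry in replicate 4. The remaining 2 lay in the interval on the other side, at ph-d.

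The paralog ph-d (X:2115727-2123286, minus strand, 7.56 kb) follows ph-p on the same strand and had 2 weaker peaks. The one 617 bp before its outermost start (145) had 79.4 in replicate 3 and 59.2 in replicate 4. The one 177 bp upstream of its inner start (138) had 65.2 in replicate 3 and 63.0 in replicate 4. Every replicate value at ph-d was below the lower replicate value at either strong ph-p peak. Counting all protein-coding genes by their strongest peak, 77 stood above ph-p and 2005 above ph-d.

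The genes arose by tandem duplication, and part of the bound sequence is shared. The peak before ph-d aligned over 387 bp, at 70.5% identity, with X:2137473-2137855 in ph-p. That stretch overlaps the facing edges of both strong ph-p peaks and contains the summit of neither. The 1 Brinker word of the ph-d peak, printed above, fell in the aligned part and was not kept in ph-p, whose aligned stretch held none. No signal of the ph-p stretch itself was measured, so none is set against that of the ph-d peak. Shorter alignments ran from the 665 peak (61 bp at 88.5%) and the 438 peak (114 bp at 84.2%) to the sequence before ph-d. No word of 36 bases in any of the 16 member peaks recurred elsewhere on the 6 arms, against 1.3% of all nuclear IDR peaks with at least 1 such word.

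Psc, which encodes a PRC1 subunit that compacts chromatin (2R:12965997-12980994, minus strand, 15.0 kb), had its main peak inside the gene. This intronic peak, 240 in the IDR list and 5073 bp downstream of the nearest Psc TSS, had 104 in replicate 3 and 136 in replicate 4. At the start of Psc the IDR peak was the weakest of the 16 (82.8, rank 3365 of 3380). It had 72.6 in replicate 3. In replicate 4 a pair of entries overlapped it, one of 41.5 with its summit 381 bp away, beside the separate pooled entry of 61.6, and a nearer one of 23.7. The remaining one, 112 in the list, lay 148 bp before lncRNA:CR44339 and had 50.8 in replicate 3 and 62.6 in replicate 4.

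Its paralog Su(z)2, next to Psc (2R:12996501-13007911, plus strand, 11.4 kb), had 1 IDR peak, in its 3' untranslated region and 9052 bp downstream of the nearest start. This peak (106) had 45.1 in replicate 3 and 54.3 in replicate 4. The start of Su(z)2 fell just outside the IDR list. An entry of 77.6, with its summit 14 bp from the first TSS, had 77.4 in replicate 3 and no overlapping entry in replicate 4. Another of 75.2, 80 bp from the second TSS, had 49.4 in replicate 3 and 36.9 in replicate 4. The weakest member peak inside the list was 82.8, at Psc. Su(z)2 nevertheless had 15 pooled entries, a number reached by 4.65% of protein-coding genes of any length. Of the 15, 14 were outside the IDR list.

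Sce (3R:27680431-27682029, minus strand, 1.60 kb), the ubiquitin ligase of PRC1, was the shortest member and had no entry in any of the 4 lists. The absence of an entry is not a count of 0: the weakest nuclear entries had 18.0 in the pooled list, 11.3 in replicate 3 and 9.87 in replicate 4, and lower signal was not listed.

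The DNA-binding members pho and phol differed in their IDR peaks within 5 kb. Neither had one in its gene body or nearest to its own TSS. For pho (4:1172469-1181628, minus strand, 9.16 kb) no peak passed IDR, although 11 pooled entries lay in its window. That number was reached by 8.38% of protein-coding genes of any length. The strongest pooled entry at pho had 46.6, with 16.9 in replicate 3 and 24.4 in replicate 4. The entry at its own start, 159 bp downstream of the TSS, had 41.3 in the pooled list, 19.4 in replicate 3 and 28.9 in replicate 4. The gene thus had many weak entries and none near the IDR limit.

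For phol (3L:9452803-9456281, minus strand, 3.48 kb), which encodes the relative of Pho, 2 IDR peaks lay before the gene, and each was at a divergent promoter of other genes. The stronger, 606 at 3L:9457646-9457917, was 103 bp upstream of CG3437, which is paired with CG3552, and 1491 bp upstream of the phol TSS. The weaker, 130, was 78 bp upstream of CG44838, which is paired with CG3434, and had 74.9 in replicate 3 and 62.8 in replicate 4.

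At the stronger phol peak replicate 4 listed no entry with its summit within 100 bp. Replicate 3 had 297 there, rank 37. The replicate 4 entry that overlaps the peak, 15.8 and rank 16093, had its summit 200 bp away, where the pooled list holds a separate entry of 44.6 near CG3552. The log2 ratio of 4.23 given by overlap, the largest over the 3244 nuclear IDR peaks with an entry in both replicates, therefore sets neighbouring entries against each other. The pooled signal of 606 was 2.04 times that of replicate 3, against a median of 1.94 over all nuclear IDR peaks. What separates the replicate lists here was not tested.

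Replicate 3 also listed entries around phol that had no counterpart. One of 106, 70 bp from the start of ghi, and one of 51.5, 66 bp from the start of asRNA:CR45873 and near the phol TSS, overlapped no entry of replicate 4 or of the pooled list. In all, replicate 3 had 8 entries in the window of phol, replicate 4 had 2 and the pooled list 3. At phol itself no binding was thus listed by both replicates.

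**Figure D2:**
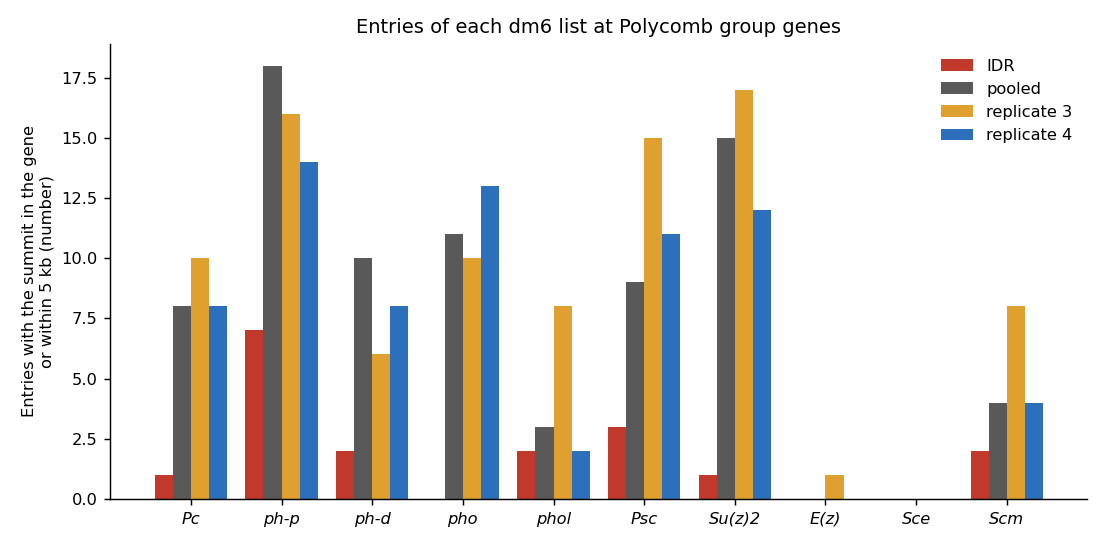
Number of entries with the summit in each gene body or the 5 kb on either side, in the IDR, pooled, replicate 3 and replicate 4 lists of dm6. The replicates have 8 and 2 entries at phol and 8 and 4 at Scm, ph-p leads the IDR counts with 7, and pho has 11 pooled entries and no IDR peak.

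Scm (3R:9633359-9637611, minus strand, 4.25 kb), whose protein connects the complexes, had 2 IDR peaks, both beyond its 3' end. The one 27 bp before the start of Calr, the gene of the calcium-binding chaperone calreticulin, lay 2481 bp past the end of Scm and had 60.0 in replicate 3 and 67.4 in replicate 4 (119). The other (105), in the 3' untranslated region of Calr, had 47.7 in replicate 3 and 53.5 in replicate 4. Inside Scm neither replicate 4 nor the pooled list had an entry, and replicate 3 had one of 27.2 at most.

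E(z) (3L:10634575-10638130, minus strand, 3.56 kb), the histone methyltransferase of PRC2, had a single entry, of 11.8 in replicate 3, before the gene and near CG14153. Neither E(z) nor Sce had a pooled entry in its window, as was the case for 42.7% of all protein-coding genes.

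The replicates gave similar signals at most of the 16 peaks. An overlapping entry was present in both for 15. The log2 ratio of replicate 3 to replicate 4 had a median of -0.16 (SD 1.16 over the 15 peaks), against 0.03 (SD 0.55) over 3244 nuclear IDR peaks, with 7 higher in replicate 3 and 8 in replicate 4. Where each replicate's summit lay within 100 bp of the IDR summit, which leaves out the stronger phol peak and the promoter peak of Psc, the SD over 13 peaks was 0.30, against 0.62 over 2948.

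**Figure D3:**
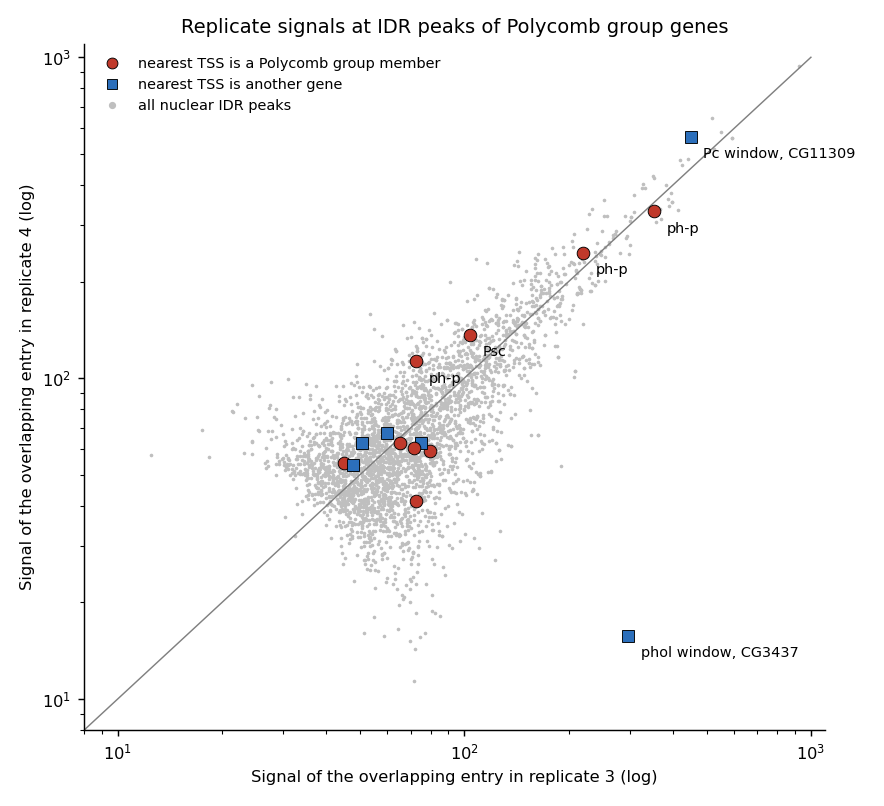
Signal of the overlapping replicate 3 entry (horizontal, log scale) and replicate 4 entry (vertical, log scale) at the member peaks, red where a member has the nearest TSS and blue where another gene does, over all nuclear IDR peaks in grey; the line marks equal signal. The stronger phol peak lies far off the line at 297 and 15.8, where the replicate 4 value is that of the neighbouring entry. The Pc peak and the ph-p peaks of 665 and 438 lie close to the line. The intronic ph-p peak at 72.5 and 113 lies further from it.

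A promoter, within 500 bp of any TSS, held 10 of the 16 summits (62.5%), against 44.5% of all nuclear IDR summits. The share was 4 of 9 (44.4%) for summits with a member's TSS nearest and 6 of 7 (85.7%) for those nearest to another gene. The higher share lay among the summits nearest to other genes. The split and the promoter class both rest on the distance to a TSS, so the 2 are not independent. Introns held 3 (18.8%), against 38.6%. A 3' untranslated region held 2 (12.5%), against 1.12%. Divergent promoters held 3 (18.8%), against 9.7%, and all 3 were among the 7 summits nearest to other genes. The median signal was 134 over the 16 and 119 over all, and 9 of 16 reached the median of all.

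Within 100 bp of the summit a Brinker word was found in 4 of 16 windows (25%) and in 14.3% of all nuclear IDR windows of the same length. The 4 were both ph-d peaks, the weaker phol peak and the peak in the 3' untranslated region of Su(z)2, with signals of 145 or less. Over the whole peak intervals the count was 5 of 16, against 28% of all, and within 200 bp of the summit 6 of 16, against 30.7%. None of the 6 strongest windows of 100 bp each side held one, the Pc, ph-p and phol windows printed above among them. The words lay 71 and 13 bp before the summit at ph-d, 71 bp after it at phol and 16 bp after it at Su(z)2, in plus-strand order.

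Words of other factors were searched on both strands in the same windows. GAGAG was found in 5 of 16 (31.2%), against 28.3% of all. GCCAT, the core of Pho sites, was found in 3 (18.8%), against 24.3%. CGATA, read by the insulator protein BEAF-32 and contained in the DRE word TATCGATA, was found in 3 (18.8%), against 27%. TATCGATA itself and GGTCACAC, the word of M1BP, were found in none, against 3.08% and 1.01%. GC content averaged 36.4% over the 16 windows (SD 5.85) and 35.6% over all (SD 7.12). These are matches of letters and say nothing of whether a factor was bound.

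Below the IDR limit, 52 further distinct entries of the pooled list lay at the 10 genes, with signals of 18.1 to 77.6 and a median of 33.0. Of these, 37 overlapped an entry in both replicates, 6 in replicate 3 alone, 8 in replicate 4 alone and 1 in neither. The same split over all pooled entries is not given here, so these counts describe the entries and show nothing particular to the 10 genes. Overlap needed 1 bp, so an entry beside an IDR peak can be counted through the replicate entry of that peak. The 44.6 entry before phol, for example, overlapped the replicate 3 entry of 297. The median number of pooled entries was 10.5 for the 6 members of 5 kb or longer, against 5 for all genes of that length, and 1.5 for the 4 shorter members, against 1 for all shorter genes.

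Other genes of Polycomb complexes and their recruiters were listed for comparison. Of 22, 9 had an IDR peak (40.9%), against 26.9% of all protein-coding genes. The strongest were at Trl, the gene of the GAGA factor (379 in all, 162 in replicate 3 and 233 in replicate 4), and Kdm2, a histone demethylase gene (357 in all, 143 and 224). RYBP, a PRC1-associated protein (317), grh, the transcription factor Grainyhead (299), and the zinc finger genes cg (202) and jing (169, with 9 summits) followed. The 13 without one were esc, escl, Su(z)12, Caf1-55, Jarid2, Sfmbt, caly, Asx, sxc, l(3)73Ah, Spps, lolal and z. Counted by the nearest TSS, 6 of 22 had a summit, against 12.8% of all protein-coding genes. The strongest peaks of Trl, RYBP, cg and jing were nearest to another gene's TSS.

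Of the Trithorax group genes, whose products keep genes active against Polycomb, 10 of 20 (50%) had an IDR peak, against 26.9% of all protein-coding genes. Counted by the nearest TSS, 7 of 20 did, against 12.8%. The leading peak was that of ash1, a histone methyltransferase gene (1166 in all, 519 in replicate 3 and 648 in replicate 4). Like that of Pc, it stood at the promoter of another gene, here CG14100, 104 bp away. The strongest peaks of osa, Iswi and skd were also nearest to another gene's TSS. The peak of osa, a subunit of the Brahma remodelling complex, had 912. It was the one at lncRNA:CR46035 that ranks directly below the Pc peak. Then came trx, a histone methyltransferase gene (424 in all, 179 and 255), Iswi, a remodelling ATPase (198 in all, 94.2 in replicate 3 and no entry in replicate 4), tna (175) and skd, a Mediator subunit (165). These lists are mostly long genes, and among genes of 5 kb or longer a peak was found at 5 of 6 members, 7 of 12 other Polycomb genes and 9 of 15 Trithorax genes, against the 44.1% of all such genes given above. Both ph-d summits also count for ph-p, so members are not independent, and differences between the lists were not tested.

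**Figure D4:**
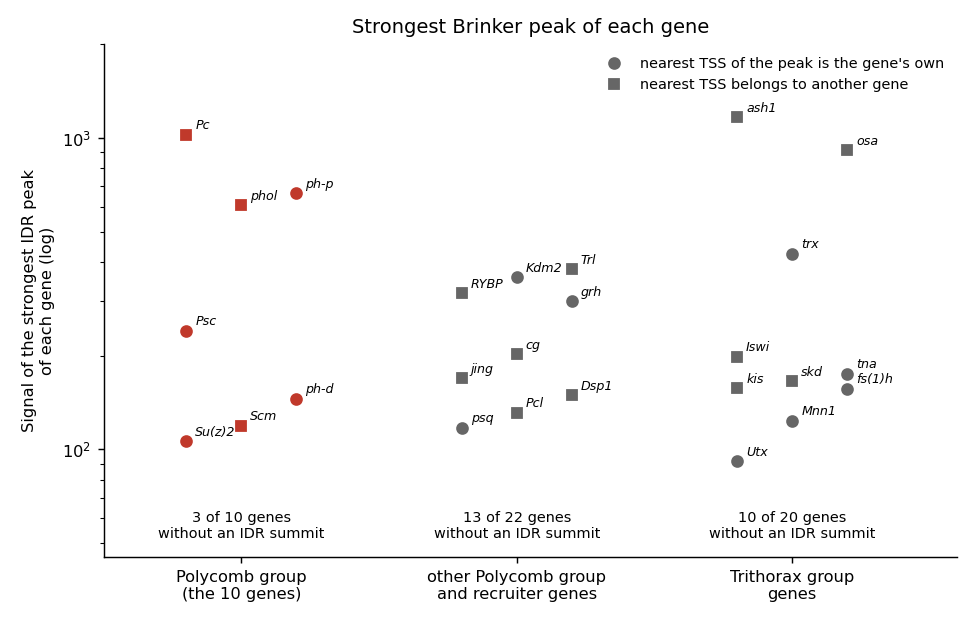
Signal of the strongest IDR peak (log scale) of each gene with one, in the 10 Polycomb group genes, the other Polycomb group and recruiter genes and the Trithorax group genes; circles have the gene's own TSS nearest and squares another gene's. The strongest peak of the 10 genes is at 1024 and that of the Trithorax genes at 1166, both squares, while the other Polycomb genes reach 379.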

How the data were processed

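The data are 4 deposited narrowPeak lists on dm6: 1 per replicate, 1 for the pooled replicates and 1 of IDR peaks. The dm3 lists were not used here. Per the labels, the description names an antibody against GFP and the antibody field names brk. The sample notes deposited with them name each list's role and say that a control alignment was used. No aligner, peak caller, version or IDR threshold is named (not given in the sources used here). Signal is the authors' deposited value, of unstated scale, and ratios between lists take the scale as common to them. The −log10 q-value, also deposited, has a ceiling, so peaks were ranked by signal. Summits come from the offset column of the deposited lists and equal the midpoint in 82.9% of IDR peaks. Depth is unknown from peak lists. Of 3413 IDR peaks, 33 are mitochondrial and were left out.

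Genes and start sites are those of Ensembl release 115 (BDGP 6.54) and sequence that of Release 6. Overlap needed 1 bp. Python 3.11.15 and scipy 1.17.1 were used, and blastn 2.17.0 with an E-value limit of 1e-10 for copies. The counting code was checked on simulated data. With 1 group, no test between conditions could be made, and the replicates give the only error. The named genes are all 10 members, the genes with the TSS nearest to their summits, the 6 strongest of each comparison list and the peaks ranked beside the 2 strongest member peaks of Pc and ph-p. Genes named beyond these (entries below the IDR limit, and genes without a peak) were chosen after their values were seen. The rule for the members uses gene names and no measured value, but the members, lists and alternatives were chosen with earlier results of these data known.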

Additional observations from a re-analysis of the deposited data

How the results depend on the processing

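The window set most of the counts. With no extension 4 members had an IDR peak, with 8 summits, against 8.19% of protein-coding genes. With 1 kb there were 4 members and 9 summits, against 16.7%. By the nearest TSS there were 4 members and 10 summits, against 12.8%. These 10 include a peak of 108 that lay 7969 bp beyond the 3' end of Su(z)2, outside the 5 kb window. The members kept in each case were ph-p, ph-d, Psc and Su(z)2. The summits of Pc, phol and Scm lay beyond 1 kb of the gene and were nearest to another gene's TSS. With 10 kb, 7 members were counted against 37.7% of genes. Peaks at or above the median signal left 5 of 10 members, without Su(z)2 and Scm, against 18.7% of genes, with 9 summits, 6 of them in promoters. The whole pooled list gave 8 of 10 members, against 57.3% of genes, with 68 summits. With either replicate left out, the stronger entries of the other replicate's list were counted, and these need not have passed IDR. By that count 7 members had a peak, against 26.8 to 31.7% of genes. At Su(z)2 without replicate 4 the strongest was 77.4, the entry at its start and not its IDR peak. A window of 50 bp each side of the summit held a Brinker word at 2 of 16 member summits, against 6.51% of all, while the whole peak gave 5 of 16 against 28% and 200 bp each side 6 of 16 against 30.7%. Without replicate 3 the strongest signal at phol was 62.8, from the peak at CG44838, and without replicate 4 it was 297, from the peak at CG3437. The counts of the other Polycomb and Trithorax genes stayed within 1.5 times under each alternative run. No paired analysis was possible because there is 1 group. The signal scale, the unknown depth and the floor of each list limit what an absent entry shows, and p-values between replicates were not computed.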
